A study of Arabidopsis thaliana with 4 samples.

Results

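Some of the most abundant transcripts of developing Arabidopsis thaliana seeds in these data came from 6 genes in a pair of chromosome regions. They are the lipid-transfer-like genes AT5G38160 and AT5G38170 on chromosome 5 and the uncharacterized genes AT1G62060, AT1G62070, AT1G62080 and AT1G62225 on chromosome 1. These 6 genes were taken by identifier from the 33187 in the expression table, and they had been selected on their very high TPM in these libraries and their lower values in the erf4 mutant. Their levels and their difference between genotypes are therefore given as a description, with no test. All 6 passed the filter on low values, which kept 20804 genes.

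RNA was sequenced from whole seeds collected 7 days post anthesis, with embryos at the torpedo to linear stage. There were 2 wild-type libraries and 2 libraries from the erf4 mutant, which is the T-DNA line SALK_073394 (erf4_2 in the sample titles). ERF4 belongs to the ethylene response factors and acts as a transcriptional repressor. Nothing in the labels says whether libraries came from separate plants, so the spread between them may be technical, and the mutant is a single insertion line. Levels are in TPM, each gene's share of all transcripts corrected for gene length. They can be compared between genes, but the read depth is unknown.

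Plant lipid transfer proteins are small secreted proteins held together by disulphide bonds between conserved cysteines, with a hydrophobic cavity that can hold a lipid. Their superfamily also includes the 2S albumins, storage proteins of the seed, and various of its members take part in forming cuticle, suberin and other lipid barriers. AT5G38160 and AT5G38170 belong to this superfamily by annotation. The 4 chromosome 1 genes carry no functional annotation beyond a placement in the endomembrane system, given for all but AT1G62080.

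The 6 genes are short and have no introns in the RefSeq annotation of TAIR10.1, and no annotated locus overlaps them. AT5G38160 and AT5G38170 each encode 103 residues with 8 cysteines, and their proteins are 65.0% identical over a global alignment. AT1G62060 and AT1G62080 each encode 150 residues with 1 cysteine, and are 83.3% identical. AT1G62225 encodes 143 residues, of which 17.5% are glycine, and is 40.1% identical to AT1G62060. AT1G62070 encodes 121 residues, of which 14.9% are proline, and no protein outside itself matched it in a BLAST search at an e-value of 1e-05. Of the windows of 100 bases in the AT1G62060 transcript, 2.84% also occur in AT1G62080, the one other transcript to hold any of them. Of windows of 50 bases, 24.0% of AT1G62060 and 14.6% of AT1G62080 occur in each other or in the relatives AT1G62000 and AT1G62220. The other 4 share no window of either length with any annotated transcript. Reads from AT1G62060, AT1G62080, AT1G62000 and AT1G62220 could in part be assigned to another of these genes, and their separate values are uncertain to that extent.

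The 300 bases before the annotated transcript start show how the chromosome 5 genes resemble each other and how AT1G62060 resembles its relative AT1G62220. They are RefSeq sequences of TAIR10.1, matched to the expression table by locus identifier, since the build behind the table is not given in the sources used here. Shown are chr5:15225467-15225766 (plus strand) for AT5G38160, chr5:15227338-15227637 (plus) for AT5G38170 and chr5:15229510-15229809 (plus) for the next gene, AT5G38180. They are chr1:22942301-22942600 (minus) for AT1G62060, chr1:22987896-22988195 (plus) for AT1G62220 and chr1:22946950-22947249 (minus) for AT1G62080. Capitals mark, on either strand, CATGCA (the core of the RY element that B3 factors bind), ACGTG (the core of elements that bZIP factors bind) and the run TGCATGATNGCCA.
AT5G38160: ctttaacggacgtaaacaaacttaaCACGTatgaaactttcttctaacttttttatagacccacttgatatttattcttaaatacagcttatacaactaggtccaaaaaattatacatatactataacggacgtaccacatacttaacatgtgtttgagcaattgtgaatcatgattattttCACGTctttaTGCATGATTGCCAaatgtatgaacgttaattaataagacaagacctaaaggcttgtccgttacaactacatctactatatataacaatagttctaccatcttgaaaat
AT5G38170: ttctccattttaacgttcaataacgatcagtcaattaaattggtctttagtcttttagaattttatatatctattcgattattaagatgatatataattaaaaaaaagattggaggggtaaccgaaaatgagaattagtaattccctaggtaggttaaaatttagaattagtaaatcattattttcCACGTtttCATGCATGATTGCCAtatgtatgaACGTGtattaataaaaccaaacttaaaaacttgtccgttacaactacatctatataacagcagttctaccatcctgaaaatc
AT5G38180: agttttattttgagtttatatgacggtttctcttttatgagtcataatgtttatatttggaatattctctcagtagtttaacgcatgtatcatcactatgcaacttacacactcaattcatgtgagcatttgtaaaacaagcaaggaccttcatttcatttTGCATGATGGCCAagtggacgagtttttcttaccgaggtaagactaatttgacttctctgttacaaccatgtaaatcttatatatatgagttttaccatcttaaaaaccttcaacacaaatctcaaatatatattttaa
AT1G62060: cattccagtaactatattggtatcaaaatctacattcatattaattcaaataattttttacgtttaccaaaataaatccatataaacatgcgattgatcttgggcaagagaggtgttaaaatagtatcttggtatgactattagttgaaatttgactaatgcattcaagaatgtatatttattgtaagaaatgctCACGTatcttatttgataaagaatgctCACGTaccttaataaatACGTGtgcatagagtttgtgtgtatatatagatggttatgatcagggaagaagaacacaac
AT1G62220: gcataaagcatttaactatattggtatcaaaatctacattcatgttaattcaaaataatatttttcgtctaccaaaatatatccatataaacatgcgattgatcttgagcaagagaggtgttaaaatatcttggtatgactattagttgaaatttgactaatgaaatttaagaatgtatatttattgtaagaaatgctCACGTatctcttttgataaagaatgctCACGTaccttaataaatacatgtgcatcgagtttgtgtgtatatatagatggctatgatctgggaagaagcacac
AT1G62080: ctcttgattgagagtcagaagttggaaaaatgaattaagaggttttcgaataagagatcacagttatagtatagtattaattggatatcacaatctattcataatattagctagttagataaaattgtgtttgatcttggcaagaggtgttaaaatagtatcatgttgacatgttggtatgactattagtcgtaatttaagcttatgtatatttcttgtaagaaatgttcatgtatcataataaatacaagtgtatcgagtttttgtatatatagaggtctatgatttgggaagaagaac

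In AT5G38160 and AT5G38170 an ACGTG match stands just before the CATGCA match, about 100 bases before the start (118 and 108 bases for AT5G38160). CATGCA was found in 10.3% of 27443 promoters of protein-coding genes, ACGTG in 25.6%, and both in 2.90%. The run TGCATGATNGCCA overlaps CATGCA and was defined after the sequences were seen. It was built from the promoters of AT5G38160, AT5G38170, AT5G38180, AT5G38195 and AT5G38197 as the stretch they share, with 1 position free to vary. Its presence in these 5 was therefore fixed by that choice, and no other of the 27443 promoters holds it. The 5 genes stand in this order on chromosome 5. None of the last 3 has an ACGTG match. On chromosome 1, AT1G62060 has 3 ACGTG matches and AT1G62220 has 2, and their promoters are 93.1% identical over 291 aligned columns. AT1G62080 and AT1G62070 have no match to CATGCA or ACGTG, and AT1G62225 has 1 to ACGTG. The promoter of AT1G62080 is 92.5% identical to that of AT1G62000 over 228 columns. TATAAA, found in 52.9% of promoters, occurs in the windows of all of the 6 but AT1G62070 and AT1G62080, and CANNTG, found in 61.9%, in all but AT1G62060 and AT1G62070. None of the 6 has GCCGCC, the core of the GCC box bound by ethylene response factors, which 2.30% of promoters hold.

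Together the 6 transcripts made up 7.04% and 8.91% of all TPM in the wild-type libraries and 3.91% and 5.11% in the libraries labelled erf4. Their summed TPM was 79701 ± 13229 in wild-type seeds and 45095 ± 8527 in erf4 (SD, n = 2), and both erf4 sums lay below both wild-type sums. AT5G38160 alone was the most abundant transcript of every library, at 1.74% to 3.57% of all TPM. Within the sum its share varied little, from 40.1% to 44.4%. The share of AT1G62225 was 2.97% and 2.86% in wild-type seeds and 1.32% and 0.751% in erf4.

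**Figure D1:**
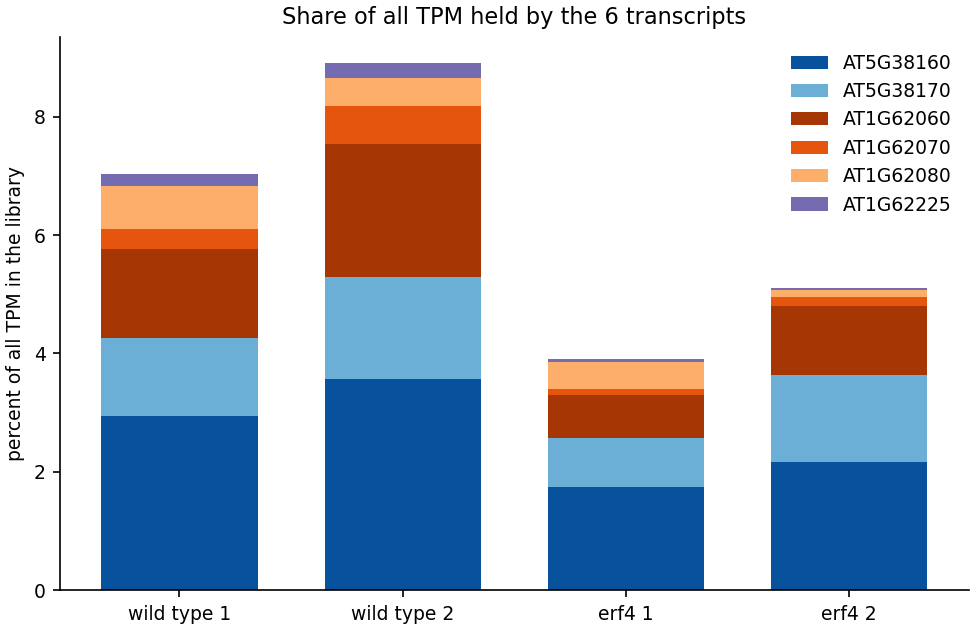
Stacked bars give the percent of all TPM in each of the 4 libraries that came from each of the 6 transcripts, with the vertical axis in percent from 0. The bars reach 7.04% and 8.91% in wild-type seeds and 3.91% and 5.11% in erf4.

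AT5G38160 had 29491 and 35676 TPM in wild-type seeds and 17362 and 21725 TPM in erf4. The erf4 values did not overlap the wild-type values, and the wild-type mean was 1.67-fold the erf4 mean (log2 fold change -0.74, SE 0.49, from limma on log2(TPM + 1)). Its neighbour AT5G38170 had 13108 and 17222 TPM in wild-type seeds and 8310 and 14627 in erf4. Here the groups overlapped, since erf4 replicate 2 lay above wild-type replicate 1, and the ratio of means was 1.32 (log2 fold change -0.45, SE 0.47). Without erf4 replicate 1 its log2 fold change was -0.04, so the difference in this gene rests on that library. The level of AT5G38160 was 2.25 and 2.07 times that of AT5G38170 in wild-type seeds, and 2.09 and 1.48 times in erf4. For both genes replicate 2 was higher than replicate 1 in each genotype.

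AT1G62060, the next most abundant after AT5G38160 in the wild type, stood at 15011 and 22545 TPM there and at 7222 and 11728 TPM in erf4. The groups did not overlap, and the ratio of wild-type to erf4 means was 1.98 (log2 fold change -0.999, SE 0.47). AT1G62070, which lies beside it on the opposite strand, had 3336 and 6381 TPM against 1025 and 1455. The wild-type mean was 3.92-fold that of erf4 (log2 fold change -1.92, SE 0.40), and the 2 wild-type values themselves differed 1.91-fold. In rank AT1G62070 went from 16 and 6 among all transcripts of the wild-type libraries to 72 and 31 in erf4.

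AT1G62225 had the largest ratio between genotypes among the 6. It had 2093 and 2547 TPM in wild-type seeds and 516 and 384 TPM in erf4, a ratio of means of 5.15 (log2 fold change -2.37, SE 0.24). The 2 values of a group differed 1.22-fold in wild-type seeds and 1.34-fold in erf4. The gene had been picked on this contrast, so the gap is not weighed against that spread. Its rank among all transcripts went from 28 and 20 in wild-type seeds to 206 and 327 in erf4. The lncRNA locus AT1G08483, the next annotated locus on one side, was also low in erf4, with 3.13 and 3.28 TPM against 0.57 and a listed 0.

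**Figure D2:**
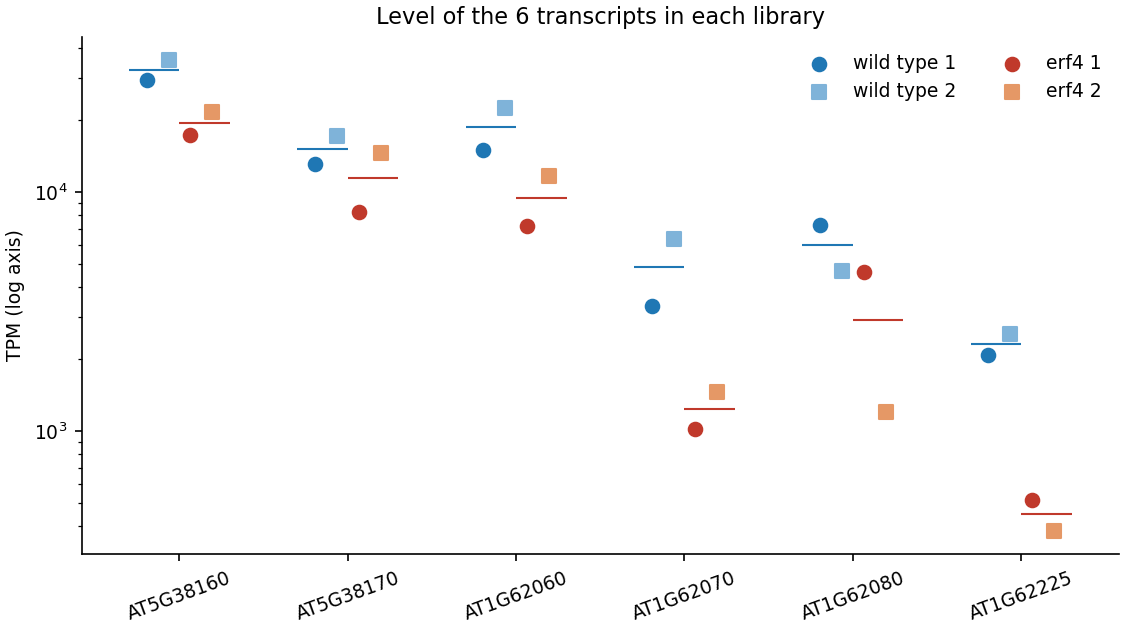
Points give the TPM of each of the 6 transcripts in each library on a log axis, with circles for replicate 1 and squares for replicate 2, and lines mark the mean of a genotype (n = 2). AT5G38170 is the one transcript whose groups overlap, and AT1G62225 has the widest gap, from 2093 to 516 TPM.

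AT1G62080 differed from the other 5 in the order of its replicates. It had 7308 and 4684 TPM in wild-type seeds and 4630 and 1206 in erf4. The higher erf4 value lay just below the lower wild-type value. Replicate 1 was the higher in each genotype, whereas 4 of the other 5 were higher in replicate 2 of each, and AT1G62225 was higher in replicate 2 of the wild type and replicate 1 of erf4. Its log2 fold change was -1.31 (SE 0.68), and -0.34 without erf4 replicate 2, so the size of its difference rests on that library. Although AT1G62060 and AT1G62080 encode similar proteins, the level of AT1G62060 was 2.05 and 4.81 times that of AT1G62080 in wild-type seeds and 1.56 and 9.72 times in erf4.

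The relatives of AT1G62080 that are not among the 6 were likewise lowest in erf4 replicate 2. Their values share the limit that reads may in part be assigned between these similar transcripts. AT1G62000, whose protein matched AT1G62080 at 91.2% identity, had 6433 and 3564 TPM in wild-type seeds against 4191 and 476 in erf4, with overlapping groups. AT1G62220, matched to AT1G62060 at 82.4%, had 2083 and 2261 TPM against 987 and 124. AT1G62060 stood at 11728 TPM in that same library, so the ratio of AT1G62060 to AT1G62220 was 7.21, 9.97 and 7.32 in the other 3 libraries and 94.6 in erf4 replicate 2. The 13 markers of the maturing embryo, mostly storage protein and oleosin genes, were low in the same library. They summed to 34279 and 19907 TPM in wild-type seeds, to 36506 in erf4 replicate 1 and to 2021 in erf4 replicate 2, and their part in the values of AT1G62080, AT1G62000 and AT1G62220 was not tested. In erf4 replicate 1 the sum was high, and the markers were split. There 5 of the 13 (OLEO1, OLEO2, OLEO3, FAE1 and CRA1) lay below both wild-type values. CRU2 (AT1G03880), CRU3 (AT4G28520), SESA1, SESA3, SESA4 and SESA5 lay above both, and SESA2 and PAP85 (AT3G22640) lay between them. All of the 6 transcripts, which had been picked for lower erf4 values, lay below both wild-type values in that library. In whole seeds, fewer cells of a type and less RNA per cell cannot be told apart.

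**Figure D3:**
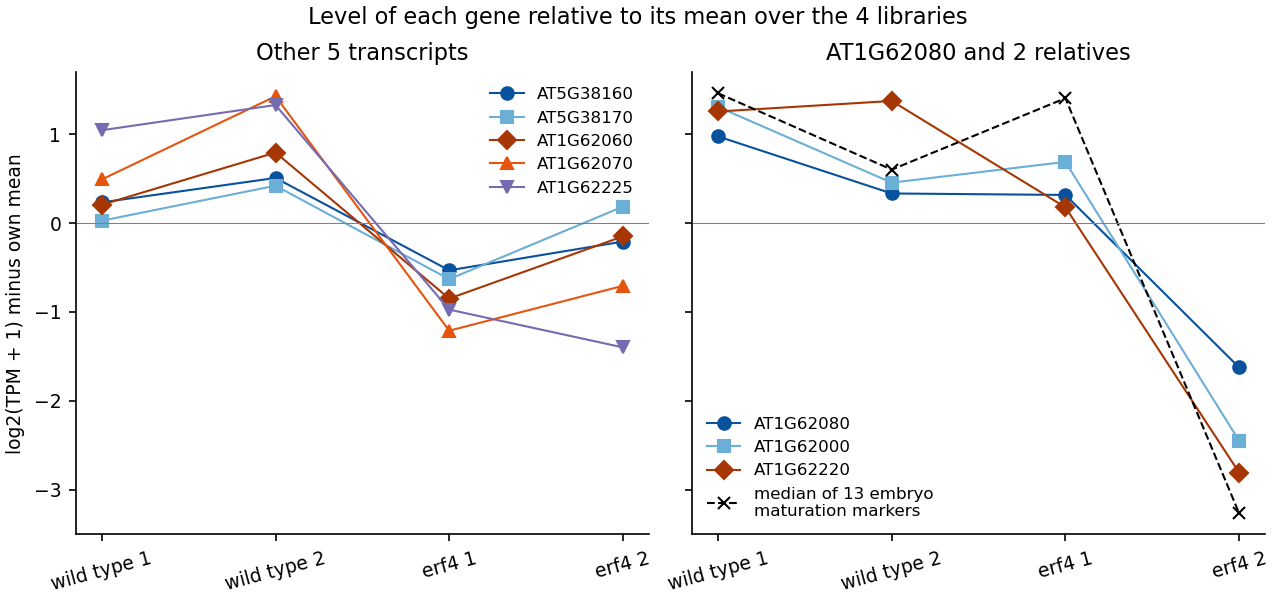
Each line joins, over the 4 libraries, a gene's log2(TPM + 1) minus its own mean, with AT5G38160, AT5G38170, AT1G62060, AT1G62070 and AT1G62225 on the left and AT1G62080 with AT1G62000 and AT1G62220 on the right; the dashed line is the median of 13 embryo maturation markers. The lines on the right reach -1.62, -2.45 and -2.81 in erf4 replicate 2, and the markers -3.26.

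Set against all tested genes, the 6 lay at the high end of abundance and on the lower side of the comparison, as their choice fixed. In 5 of the 6 both erf4 values were below both wild-type values, which was so for 12.2% of all tested genes, while 21.5% lay above. Nothing is read from that count, because the same contrast chose the genes. Limma called no gene at an adjusted p under 0.05 in either direction (0% of 20804, smallest adjusted p = 0.171, and 5.21% with the replicate number as a block), and 6.98% had an unadjusted p under 0.05, which gives 1452 genes. The median log2 fold change over all tested genes was 0.03. Among the 78 genes with a mean of at least 1000 TPM, 17 (21.8%) lay under both wild-type values and 25 (32.1%) over both. The 78 include the 6, and the 17 include the 5 that were picked for lower values and did not overlap.

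The choice of the 6 left out transcripts of like abundance. Among the 25 highest wild-type means, the other 19 included 4 that were below both wild-type values in erf4, 6 that were above, and 9 that overlapped. Those below were the germin-like gene GER2 (AT5G39190), AT5G38070, the globulin gene CRA1 (AT5G44120) and AT1G47540. GER2 had 6424 and 7734 TPM in wild-type seeds against 3772 and 2693, and AT5G38070, a RING-type zinc finger gene, had 5913 and 7914 against 3675 and 5863. At the lower edge, AT1G62225 ranked 24 by wild-type mean, at 2320 TPM, and AT1G47540, just outside, had 2286 TPM. These genes other than GER2 were named after their values were seen.

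**Figure D4:**
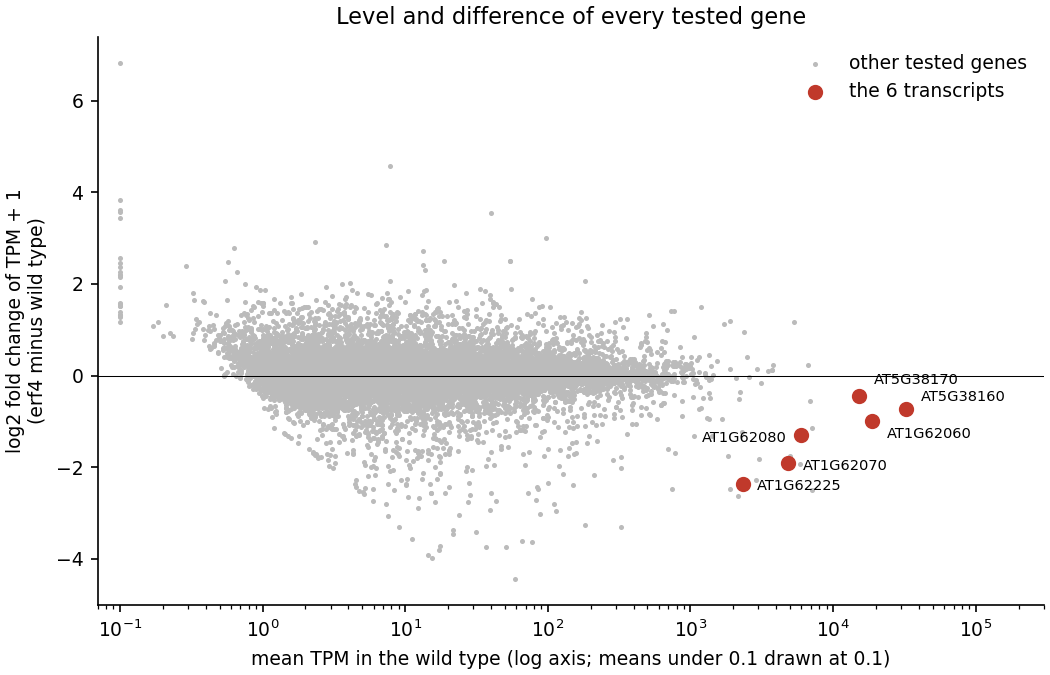
Each point is a tested gene, placed by its mean TPM in wild-type seeds (log axis) and its log2 fold change of TPM + 1 from wild type to erf4; the 6 transcripts are in red. They run from -0.45 for AT5G38170 to -2.37 for AT1G62225, below the median of all genes at 0.03.

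The genes around the 6 were taken by position and tested with all others. Of 31 annotated loci within 5 places of a member, 15 were tested and limma called none (smallest adjusted p = 0.460, that of AT1G08483). Of these, 3 lay below the wild-type range and 2 above it, against 12.2% and 21.5% of all tested genes, and their median log2 fold change was -0.20. AT5G38180, next to AT5G38170 and of the same superfamily, had higher values in erf4, unlike the pair, which had been picked for lower ones. It stood at 466 and 497 TPM in wild-type seeds and 799 and 824 in erf4, so the groups did not overlap, with a log2 fold change of 0.75 (SE 0.16, limma adjusted p = 0.461). The level of AT5G38160 was 63.3 and 71.8 times that of AT5G38180 in wild-type seeds, and 21.7 and 26.4 times in erf4.

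Further along, AT5G38195 had 313 and 311 TPM against 416 and 263, and AT5G38197 had 31.9 and 25.5 against 67.5 and 28.2. On the other side the transcription factor gene AT5G38140 (a nuclear factor Y subunit C) and the pseudogene AT5G38150 stood at log2 fold changes of -0.22 and -0.20, with overlapping groups. Around the chromosome 1 genes, AT1G62040 had 139 and 153 TPM against 123 and 120, and AT1G62050, an ankyrin repeat gene, 16.6 and 16.3 against 19.4 and 19.4. The peptide transporter gene AT1G62200 and AT1G62250 had log2 fold changes of -0.08 and 0.14. AT1G62220 had a log2 fold change of -2.63 (SE 0.94, limma adjusted p = 0.657), and leaving out erf4 replicate 2 or erf4 replicate 1 moved it to -1.14 or -4.12. AT1G62210 was listed at 0 in erf4 replicate 2 and had 97.3 TPM in erf4 replicate 1, against 41.7 and 6.40 TPM in wild-type seeds.

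**Figure D5:**
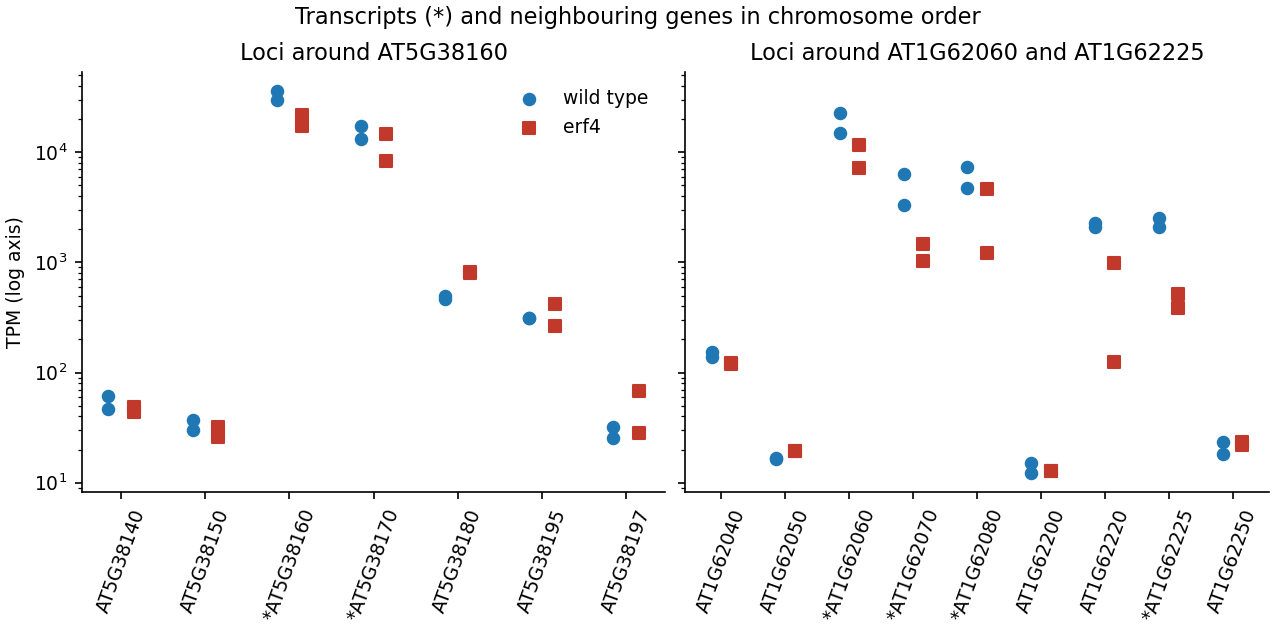
Points give the TPM in each library, on a log axis, of the 6 transcripts (marked *) and of neighbouring genes with a mean of at least 5 TPM, in chromosome order, with circles for the wild type and squares for erf4. AT1G62210 is left out because it is listed at 0 in 1 library. AT5G38180 is higher in erf4, at 799 and 824 TPM, while AT5G38160 and AT5G38170 have lower erf4 means, for which they had been picked.

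A BLAST search with AT5G38160 and AT5G38170 returned 17 other proteins at an e-value of at most 1e-05, a list made with the results of the pair known. Of these, 11 were tested and limma called none; 4 had an unadjusted p under 0.05, against 6.98% of all tested genes. Their log2 fold changes were positive for 10 and negative for 1, with a median of 0.60 against 0.03 for all genes. Both erf4 values lay above the wild-type range for 6 of them (54.5%, against 21.5% of all tested genes) and below it for none. Both genes of the pair had lower erf4 means, but they had been picked for that, so nothing is read from the contrast. AT1G43667 had 110 and 74.9 TPM in wild-type seeds against 261 and 178 in erf4 (log2 fold change 1.24, SE 0.27), and AT4G12825 had 95.2 and 64.5 against 149 and 111. AT1G48750 had 133 and 122 against 156 and 187. The one negative value was that of AT1G66850 (8.47 and 17.2 TPM against 4.38 and 9.68). None of these relatives came near the level of the pair: summed over all 17, they reached 1268 and 1182 TPM in wild-type seeds and 2068 and 1723 in erf4.

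In the wider superfamily of lipid transfer proteins, 2S albumins and their relatives, 134 genes are annotated, of which 77 besides the pair were tested. The log2 fold change was positive in 37 of those 77 and negative in 40, 24 exceeded both wild-type values and 20 lay under both (31.2% and 26.0%, against 21.5% and 12.2% of all tested genes). Limma called none, and 22 had an unadjusted p under 0.05, against 6.98% of all tested genes. The smallest p was that of EDA4 (AT2G48140), with 105 and 49.1 TPM in wild-type seeds against 9.03 and 2.47 (limma adjusted p = 0.407). The median log2 fold change was -0.05. Among the 28 with a mean of at least 100 TPM, 11 lay above the range of the wild type and 6 below, against 24.4% and 15.3% of all genes at such levels.

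Those above included the lipid transfer protein genes LTP3 (AT5G59320) with 2677 and 2080 TPM in wild-type seeds against 6072 and 3386 in erf4, LTP4 (AT5G59310) with 7145 and 6191 against 8071 and 7541, LTP6 (AT3G08770) and LP1 (AT2G38540, also called LTP1). The last 2 had log2 fold changes of 1.14 and 1.31. AT5G09370, AT1G55260 and AT2G15325 stood at 1.14, 1.28 and 0.35, and the rest of the 11 were AT5G38180, AT1G43667, AT4G12825 and AT1G48750. Those below were AT4G30880, EPR1 (AT2G27380), AT1G03103, LTP2 (AT2G38530), AT1G62500 and XYP1 (AT5G64080), with log2 fold changes of -0.94, -0.94, -1.77, -2.01, -1.47 and -0.56. EPR1 is an extensin-like gene of the endosperm. In 5 of these 6, all but AT4G30880, the lowest value was that of erf4 replicate 2. The 2S albumin genes SESA1 to SESA5 (AT4G27140, AT4G27150, AT4G27160, AT4G27170 and AT5G54740) had overlapping groups, with 13.6 to 280 TPM in erf4 replicate 2 and 123 to 10649 TPM in the other libraries. The remaining 6 with such levels, AT5G55410, AT5G38195, LTPG1 (AT1G27950), AT1G62510, AT1G62790 and AT4G15160, also overlapped, with log2 fold changes from -0.74 to 0.08.

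Genes whose pattern over the 4 libraries came nearest to the mean pattern of the 6 were taken from 1709 with a mean of at least 100 TPM. Likeness was the root mean square distance between log2(TPM + 1) values, each relative to the gene's own mean, and its median over these candidates was 0.68. The nearest was MEE26 (AT2G34870), annotated as a hydroxyproline-rich glycoprotein, at a distance of 0.09, with 324 and 391 TPM in wild-type seeds against 160 and 135. It was followed by the cupin gene AT5G39160 (0.10), the gene E12A11 (AT1G18100), for a phosphatidylethanolamine-binding protein (0.11), AT1G65090 (0.15) and GER2 (0.19). Next came the superfamily gene AT4G30880 (0.19), with 1557 and 1785 TPM against 817 and 919. The oil body gene OLEO3 (AT5G51210), LBD40 (AT1G67100), the bZIP factor gene EEL (AT2G41070) and AT5G60460 were at 0.20, 0.21, 0.23 and 0.23. The 6 themselves lay between 0.30 (AT5G38160) and 0.76 (AT1G62080) from their own mean pattern, so these 10 genes were each nearer to it than any single one of the 6. The 10 were taken as the nearest of 1709 to a pattern of genes picked for lower erf4 values. Their own lower erf4 values follow from that choice, and nothing is read from their nearness.

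The libraries were checked with marker lists of seed tissues and of the silique wall and leaf. Their counts stand against 21.5% of all tested genes above both wild-type values and 12.2% below both. ERF4 (AT3G15210) itself stood at 38.0 and 33.0 TPM in wild-type seeds and, in the libraries with the erf4 label, at 34.6 and 41.3, so its level does not check the labels; where in the gene the reads fell was not analysed here. Markers of the mucilage-secreting epidermis, with a summed TPM of 4316 and 3614 in wild-type seeds and 8481 and 5862 in erf4, exceeded both wild-type values in 8 of 18 cases and lay under both in 1. Much of that sum came from AT1G56100, and the other 17 summed to 1825 and 2302 TPM against 2514 and 2993. Inner seed coat markers exceeded both in 6 of 8 and silique wall and leaf markers in 7 of 8. In each of these lists 1 marker lay below both, TT10 (AT5G48100) and FIL (AT2G45190). The sums were 1402 and 1116 TPM against 2009 and 1648 for the inner seed coat. For the silique wall and leaf they were 711 and 676 TPM against 868 and 872. All 13 maturing embryo markers had negative log2 fold changes, 5 of them below the range. In all but FAE1 the lowest value was that of erf4 replicate 2. For CRU2 and SESA4 the mean TPM was higher in erf4 than in wild-type seeds (866 against 743, and 3297 against 2867). Of 8 endosperm markers 7 were tested, 4 were above and 1 below, and the sum of the 8 was 1622 and 1287 TPM against 869 and 770. Most of that sum was EPR1, and the other 7 summed to 91.4 and 98.6 TPM against 90.2 and 137. The early endosperm gene AGL62 was at 0.06 to 0.43 TPM, and no marker of any list was at 0 in all libraries. Limma called no gene of these lists, and the part of differences in tissue make-up in the values of the 6 transcripts was not tested.

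By their smallest p, the leading genes of the epidermis list were the peroxidase gene PRX36 (AT3G50990), the subtilase gene SBT1.7 (AT5G67360), GATL5 (AT1G02720) and MYB5 (AT3G13540), with log2 fold changes of 1.67, 0.67, -1.45 and 0.40. For the inner seed coat they were BAN (AT1G61720), LDOX (AT4G22880), TT19 (AT5G17220) and DFR (AT5G42800), at 0.75, 1.09, 0.97 and 1.17. For the embryo they were FAE1 (AT4G34520), OLEO3 (AT5G51210), OLEO2 (AT5G40420) and OLEO1 (AT4G25140), at -1.01, -0.92, -1.32 and -1.75. For the endosperm they were PHE1 (AT1G65330), EPR1 (AT2G27380), FWA (AT4G25530) and FIS2 (AT2G35670), at 1.26, -0.94, 0.78 and 0.51, and for the silique wall and leaf TGG2 (AT5G25980) at 0.49, TGG1 (AT5G26000) at 0.26, SHP1 (AT3G58780) at 0.37 and FIL (AT2G45190) at -0.25.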

How the data were processed

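Gene expression was measured in 4 libraries of whole seeds, 2 per genotype, grouped by sample title. The authors deposited TPM per gene to 2 decimals and the mean TPM of each genotype, which entered no test. Of tools, fastp, HISAT and RSEM are named in the submitters' processing notes, with no version or role; the genome build is not given in the sources used here. TPM keeps no read depth, so no counting interval is given, and a listed 0 may be a failed estimate.

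The 6 genes and all lists were chosen with earlier results of these data known. The 20804 genes that reached 1 TPM in 2 or more libraries were fitted with limma 3.58.1 (R 4.3.3) on log2(TPM + 1), two-sided, with genotype as sole term and a variance trend, with Benjamini-Hochberg adjustment over all of them. Fold changes on this scale understate the change of low genes. The SE given with a fold change is limma's, with each gene's variance drawn toward a trend over all genes. It is therefore not the spread of that gene's own libraries. An exact permutation test of 2 against 2 libraries cannot go below 0.333 two-sided and was not used. The fit was also run on simulated data with known changes, and no result of that run is given or used here. Named genes are the 6, neighbours within 5 loci with a mean of at least 5 TPM, the 10 nearest in pattern, superfamily genes with a mean of at least 100 TPM, ERF4 and up to 4 leading markers per list. AT1G08483, AT1G56100, AT1G62000, EDA4, the BLAST relatives and markers beyond the leading 4 of a list were named after their values were seen. Of the identifiers, 32548 matched a nuclear locus of TAIR10.1, including all 6, which supplied names, families and promoters of 300 bases. Proteins were translated from RefSeq coding sequences and aligned with Biopython 1.88 (BLOSUM62). Alternatives covered the pseudocount, filter, scaling, variance model, threshold, replicate number as a term and leaving out each library.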

Additional observations from a re-analysis of the deposited data

How the results depend on the processing

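No alternative that was run changed the sign of the log2 difference of any of the 6 transcripts, apart from AT5G38160 under quantile normalization, where it was 0; that scaling gives the top transcript of every library the same value, and AT5G38160 was the top transcript of all 4. The same scaling moved AT5G38170 from -0.45 to -0.11. Leaving out each library in turn, the differences ran from -0.90 to -0.58 for AT5G38160, -0.85 to -0.04 for AT5G38170, -1.35 to -0.65 for AT1G62060, -2.38 to -1.45 for AT1G62070, -2.28 to -0.34 for AT1G62080, -2.58 to -2.16 for AT1G62225 and -1.02 to -0.63 for the sum (-0.82 over all libraries). With TPM rescaled without the storage protein genes and the 6, the sum stood at -0.89.

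The count of genes called by limma, 0 as reported, was 44 with no filter on low values, 0 to 8 without 1 library (7 without wild-type replicate 1, 8 without wild-type replicate 2), and 1083 (5.21%) with the replicate number as a block. That block called 26 of the 77 superfamily genes and 18 of the 54 markers, against 0 of each otherwise. The labels do not say that the numbers pair the samples; across genes the replicate differences of the genotypes correlated at 0.35. Among neighbours, the block called AT1G62220 (-2.63) and AT5G38180 (0.75). Leaving out 1 library turned the sign of some neighbours, and the cause was not tested: the log2 differences ran from -0.215 to 0.0542 for AT1G62200, -0.0366 to 0.314 for AT1G62250, -4.15 to 2.47 for AT1G62210 (0.42 without wild-type replicate 1), -0.24 to 0.412 for AT5G38195 and -0.0126 to 1.22 for AT5G38197. Leaving out erf4 replicate 1 put the median of all genes at 0.14, and leaving out erf4 replicate 2 put it at -0.07. With 1 library left in a genotype, limma assumes that it varies like the others. Depth is unknown and sets no stated limit.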
